A study of Mus musculus with 9 samples.

Results

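Blood transcription factors that act together in stem cells, 10 genes in all, were read in bone marrow cells of mice that lack Socs2. The genes are Gata2, Runx1, Tal1, Lmo2, Lyl1, Fli1, Erg, Meis1, Gfi1 and Mecom. They were found as every probe of the array whose platform annotation gives 1 of these 10 symbols, which came to 17 of 45281 probes. Of the 17, 16 were tested, out of 13333 named probes that entered the test, and every one of the 10 genes kept at least 1 tested probe.

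The cells were LSK cells, a sorted part of bone marrow that lacks lineage markers, carries Sca-1 and Kit, and contains stem cells and early progenitors. The tested mice were Socs2-/-, with 4 arrays, and the mice they were set against were wt, with 5 arrays. All were male C57BL/6 mice of 12 weeks that had received 5-fluorouracil at 150 µg/g 6 days before, so both genotypes carry the drug treatment and no untreated cells were analysed here. The labels do not give the allele behind Socs2-/-, or whether an array stands for 1 mouse or a pool. The p-values therefore rest on differences among arrays of 1 genotype, and these may be technical. 5-fluorouracil kills dividing cells, after which stem cells are drawn into division, and the title of the series names Socs2-dependent expression at that time as its question. Socs2 is a suppressor of cytokine signalling that is itself switched on by cytokines.

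As background, these factors bind many of the same enhancers in blood progenitors and regulate one another's genes. Tal1 and Lyl1 are basic helix-loop-helix proteins that bind E-boxes with E proteins, Lmo2 bridges them to Gata factors through Ldb1, and Fli1 and Erg are ETS proteins. Runx1 binds DNA with its partner Cbfb, Meis1 binds with Pbx and Hox proteins, Gfi1 is a repressor that restrains stem cell division, and Mecom, which encodes Evi1, is needed to keep long-term stem cells.

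The stretches around the transcription starts of Runx1, Lyl1 and Gfi1 are shown because these were the members with the largest differences in mean, and because members of the network could bind letters of this kind in them. Each covers 250 bases before a start to 50 after it, on the gene's own strand, from RefSeq on GRCm38.p6. The capitals mark matches, on either strand, to TGTGGT for RUNX proteins, CCGGAA for ETS proteins, CANNTG (the E-box), GATAA for Gata proteins, AATCAC for Gfi1 and TGACAG for Meis1.
Runx1, chr16:92826025-92826324, minus strand: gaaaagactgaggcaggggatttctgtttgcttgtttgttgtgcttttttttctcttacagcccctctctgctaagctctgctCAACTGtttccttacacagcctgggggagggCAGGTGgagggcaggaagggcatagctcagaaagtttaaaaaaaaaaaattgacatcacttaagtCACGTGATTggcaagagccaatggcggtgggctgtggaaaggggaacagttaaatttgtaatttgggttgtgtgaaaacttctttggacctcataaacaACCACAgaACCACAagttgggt
Lyl1, chr8:84701207-84701506, plus strand: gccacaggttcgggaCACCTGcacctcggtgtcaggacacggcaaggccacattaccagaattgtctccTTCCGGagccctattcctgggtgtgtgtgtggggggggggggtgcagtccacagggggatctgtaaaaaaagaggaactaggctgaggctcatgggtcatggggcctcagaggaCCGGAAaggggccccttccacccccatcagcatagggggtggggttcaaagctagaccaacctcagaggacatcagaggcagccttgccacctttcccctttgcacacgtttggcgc
Gfi1, chr5:107725756-107726055, minus strand: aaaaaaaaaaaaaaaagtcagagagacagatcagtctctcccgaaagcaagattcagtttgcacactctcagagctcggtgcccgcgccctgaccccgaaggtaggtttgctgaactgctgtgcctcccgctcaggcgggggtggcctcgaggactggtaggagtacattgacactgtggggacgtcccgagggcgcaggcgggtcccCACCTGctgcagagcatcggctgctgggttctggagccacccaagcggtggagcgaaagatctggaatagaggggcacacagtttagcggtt
The Runx1 stretch held 2 RUNX matches, at positions 28 and 36 counted from the start, and 3 E-boxes, at -167, -136 and -71. The last of these overlapped a Gfi1 match at -68. The Lyl1 stretch held 2 ETS matches, at -181 and -67, and 1 E-box, at -235. The Gfi1 stretch held 1 E-box, at -42. These stretches are those of the outermost start of each gene. Gfi1 and Runx1 each had 1 other start, whose stretch is not shown. It held 1 ETS match and 1 E-box for Gfi1, and 1 ETS match and 1 Gfi1 match for Runx1. Of 32851 stretches of this length in the table, 16.8% held a RUNX match, 14.9% an ETS match, 72.3% an E-box, 25.4% a Gata match, 10.4% a Gfi1 match and 19.2% a Meis1 match. The table had entries for 8 of the 10 members, with 15 starts in all, and none for Lmo2 and Fli1. Of those 15 stretches, 9 held an E-box, 4 an ETS match, 4 a Gata match, and 2 each a RUNX, a Gfi1 and a Meis1 match. A match describes letters and does not show a bound site.

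Levels below are the authors' log2 values, and a probe was tested when it was above 7.5, a level just over the array medians of 6.91 to 7.18, on at least 4 of the 9 arrays. A difference is Socs2-/- minus wt on the same log2 scale. The targeted gene followed the labels: Socs2 probe ILMN_2628178 read 6.71 ± 0.10 on Socs2-/- arrays (SD, n = 4) and 9.67 ± 0.40 on wt arrays (SD, n = 5). All 4 Socs2-/- values were at or below 7.5, so the signal was at least 4.51-fold lower (limma adjusted p = 0.0684). The other Socs2 probe, ILMN_1250749, was above 7.5 on wt array 2 alone, at 8.93. Socs2-/- arrays 1 and 2 stood apart from the other 7. On them 31.1% and 31.0% of all probes were above 7.5, against 35.1% and 34.8% on Socs2-/- arrays 3 and 4 and 34.3% to 35.4% on wt arrays. Over the tested probes, the median correlation of an array with the remaining ones was 0.50 and 0.47 for these 2, and 0.62 to 0.69 for the other 7. Differences are therefore also given without these 2 arrays, which leaves 2 Socs2-/- arrays against 5 wt arrays.

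No member changed between genotypes at an adjusted p under 0.05 in limma, and the same held for all probes tested, of which 0, or 0%, passed. At an unadjusted p under 0.05, 1 of the 16 member probes passed, that of Gfi1, beside 10.3% of all probes tested. The 2 genotypes overlapped at every member probe, beside 3.53% of all probes tested at which they did not. The difference was above 0 at 8 of the 16 member probes, beside 40.2% of all probes tested, and its median was 0.0045, beside -0.19 over all. Without Socs2-/- arrays 1 and 2, 5 of 16 were above 0 with a median of -0.10, beside 47.7% and -0.04 over all, and 2 passed an unadjusted p under 0.05, those of Lyl1 and Tal1, beside 6.19% of all. In bulk RNA of this kind, fewer cells that express a gene and less RNA of it per cell cannot be told apart.

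**Figure D1:**
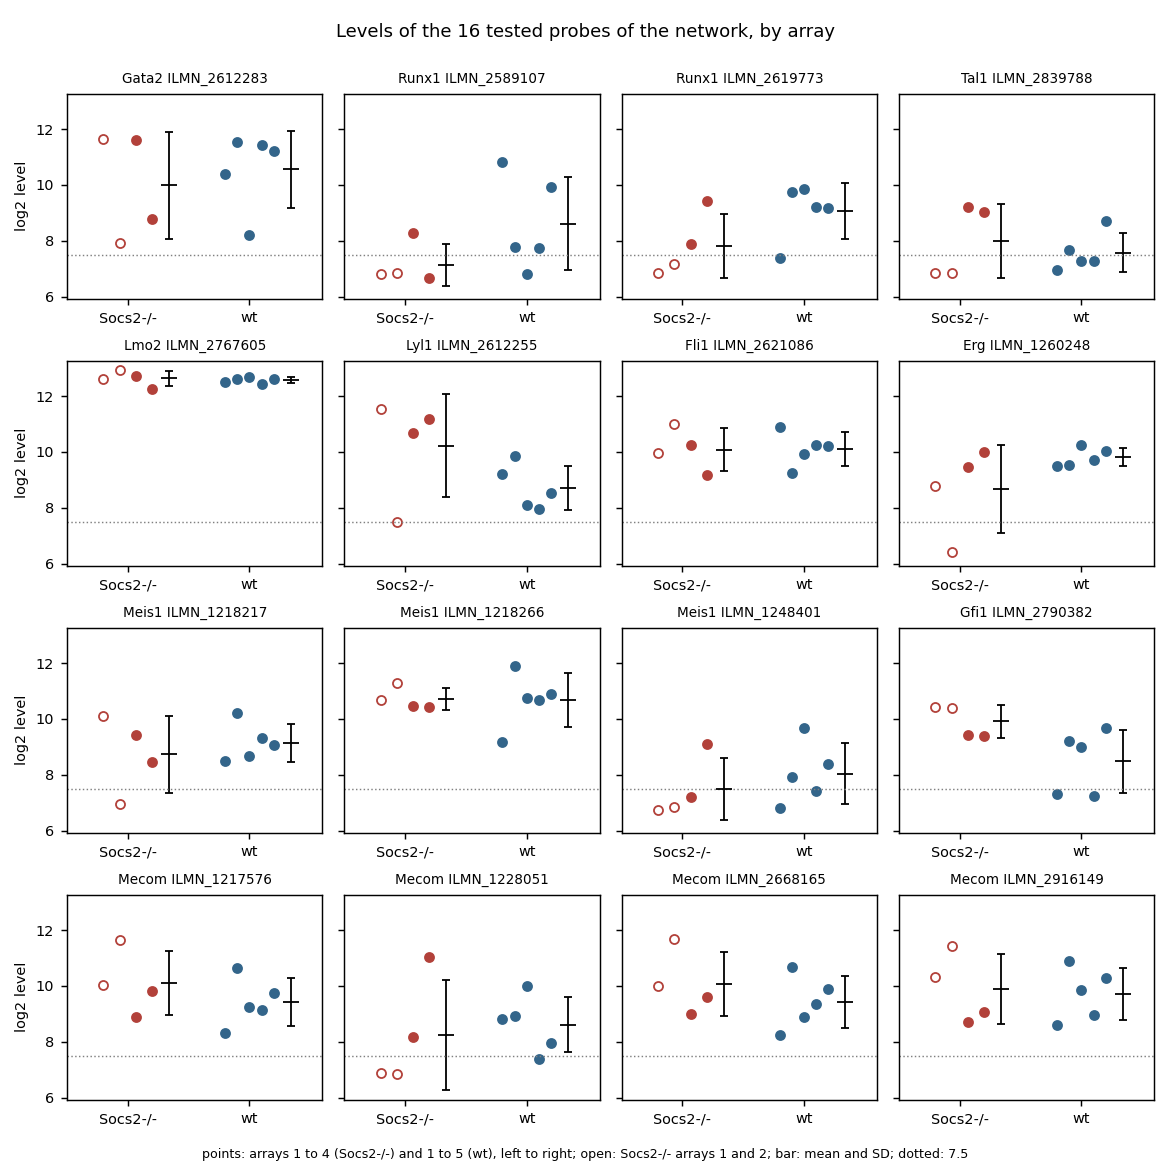
Levels of the 16 tested probes. Each panel is 1 probe, with log2 level on the vertical axis, 4 Socs2-/- arrays on the left and 5 wt arrays on the right, black bars for mean and SD, open points for Socs2-/- arrays 1 and 2 and a dotted line at 7.5. The genotypes overlap in all 16 panels, and the spread among arrays differs widely between probes.

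Gfi1 and Lyl1 had higher means in Socs2-/- cells. Gfi1, a zinc finger repressor encoded on chromosome 5, read 10.43, 10.41, 9.44 and 9.37 on Socs2-/- arrays 1 to 4, against 7.32, 9.19, 9.001, 7.23 and 9.66 on wt arrays 1 to 5 (ILMN_2790382). All 4 Socs2-/- arrays had it above 7.5, while wt arrays 1 and 4 lay under that level and wt array 5 lay above Socs2-/- arrays 3 and 4. The means were 9.91 ± 0.59 in Socs2-/- cells and 8.48 ± 1.13 in wt cells (SD, n = 4 and 5), a 2.70-fold difference. Its log2 difference of 1.43 (SE 0.59) had an unadjusted 95% interval of 0.13 to 2.73, a limma p of 0.0342, and an adjusted p of 0.458. Exact permutation of the genotypes over the arrays (126 ways, two-sided) gave p = 0.0794, where the smallest possible is 0.0159. Without Socs2-/- arrays 1 and 2 the difference was 0.92 (limma adjusted p = 0.922), which is over 1.5 times smaller. The unadjusted limma p of Gfi1 was 0.0834, 0.0809, 0.0820 and 0.0839 when Socs2-/- array 1, Socs2-/- array 2, wt array 1 or wt array 4 was left out alone, with differences of 1.12 to 1.27.

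Lyl1, the close relative of Tal1 on chromosome 8, read 11.54, 7.49, 10.69 and 11.20 on Socs2-/- arrays 1 to 4, against 9.19, 9.84, 8.09, 7.94 and 8.53 on wt arrays 1 to 5 (ILMN_2612255). Socs2-/- arrays 1, 3 and 4 lay above every wt array, and Socs2-/- array 2 lay below all of them, just under 7.5. The difference in means was 1.51 (SE 0.79), or 2.85-fold, with an interval of -0.23 to 3.25, a limma adjusted p of 0.540 and an exact permutation p of 0.143. It was 1.07 without Socs2-/- array 1 and 2.42 without Socs2-/- array 2, so array 2 alone moved it by over 1.5 times. Without arrays 1 and 2 together it was 2.22, with a limma p of 0.00472 and an adjusted p of 0.514. That comparison rests on 2 Socs2-/- arrays, and no exact permutation p is given for it.

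Tal1, on chromosome 4, was above 7.5 on 2 of 4 Socs2-/- arrays and 2 of 5 wt arrays. It read 6.85, 6.83, 9.21 and 9.04 on Socs2-/- arrays 1 to 4, against 6.94, 7.67, 7.27, 7.29 and 8.71 on wt arrays 1 to 5 (ILMN_2839788). Socs2-/- arrays 3 and 4 lay above all wt arrays, and Socs2-/- arrays 1 and 2 lay at the bottom, below every wt array. The difference of 0.40 (SE 0.63, limma adjusted p = 0.838, exact permutation p = 0.587) became 1.55 without Socs2-/- arrays 1 and 2, with a limma p of 0.0173 and an adjusted p of 0.651. Here too 2 Socs2-/- arrays were left, and no exact permutation p is given. For both helix-loop-helix genes, Lyl1 and Tal1, Socs2-/- arrays 3 and 4 read above all 5 wt arrays, while Socs2-/- array 2 read below all of them. For Tal1, Socs2-/- arrays 1 and 2 and wt arrays 1, 3 and 4 were all under 7.5. The order of these low Tal1 values is therefore uncertain.

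Runx1 and Erg, which lie on the same chromosome, 16, had lower means in Socs2-/- cells. The first Runx1 probe (ILMN_2589107) read 6.80, 6.83, 8.27 and 6.68 on Socs2-/- arrays 1 to 4, against 10.81, 7.77, 6.82, 7.75 and 9.92 on wt arrays 1 to 5. It was above 7.5 on 1 of 4 Socs2-/- arrays and 4 of 5 wt arrays. Its difference was -1.47 (SE 0.79, limma adjusted p = 0.556, exact permutation p = 0.206), and -0.92 without wt array 1, the highest of the 9. Since 3 of the 4 Socs2-/- values lay under 7.5, no fold is given, and the difference was -1.06 with all values floored at 7.5.

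The second Runx1 probe (ILMN_2619773) read 6.83, 7.16, 7.87 and 9.43 on Socs2-/- arrays 1 to 4, against 7.38, 9.73, 9.86, 9.20 and 9.18 on wt arrays 1 to 5. Here Socs2-/- arrays 1 and 2 were the lowest, wt array 1 was low among the wt arrays, and Socs2-/- array 4 lay among the other wt arrays. Its difference was -1.25 (SE 0.65, limma adjusted p = 0.540, exact permutation p = 0.135), and it was -0.42 without Socs2-/- arrays 1 and 2. The first probe had -1.14 without them. The probes gave the same sign, but wt array 1 was the highest array on the first probe and the lowest wt array on the second. With the mean of both probes as the gene's value, an alternative, the difference was -1.36 (SE 0.42), with a limma p of 0.00793 and an adjusted p of 0.355. The SD within genotypes was 0.57 for that mean, beside 1.36 and 1.07 for the first and second probe. Over the 9 arrays the 2 probes had a Pearson's r of -0.12. Opposite readings, as on wt array 1, cancel in the mean. The smaller p therefore rests on averaging probes that did not follow each other.

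Erg, an ETS factor needed to maintain adult stem cells, read 8.79, 6.40, 9.47 and 9.99 on Socs2-/- arrays 1 to 4, against 9.51, 9.53, 10.26, 9.72 and 10.03 on wt arrays 1 to 5 (ILMN_1260248). The wt arrays lay close together (9.81 ± 0.33, SD, n = 5), while the Socs2-/- arrays spread widely (8.66 ± 1.58, SD, n = 4), with array 2 far below the rest. The difference was -1.15 (SE 0.65, limma adjusted p = 0.572, exact permutation p = 0.0794). It was -0.39 without Socs2-/- array 2 and -0.08 without both arrays 1 and 2. The other Erg probe (ILMN_1253014) was the member probe left untested, with 6.83 to 7.06 on all 9 arrays.

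Fli1, the other ETS member, on chromosome 9, had means of 10.09 ± 0.76 in Socs2-/- cells and 10.11 ± 0.61 in wt cells (SD, n = 4 and 5, ILMN_2621086). It read 9.95, 11.0003, 10.24 and 9.16 on Socs2-/- arrays 1 to 4, against 10.91, 9.24, 9.93, 10.26 and 10.22 on wt arrays 1 to 5. Each genotype thus held both high and low arrays, and all 9 were well above 7.5. The difference of -0.03 (SE 0.48) had an interval of -1.09 to 1.04, so a difference of up to about 1 on the log2 scale in either direction is within the error. It was -0.41 without Socs2-/- arrays 1 and 2. Its sign was positive after median centring of the arrays (0.090) and after quantile normalization (0.029).

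Lmo2, the LIM-domain bridge of the complex, on chromosome 2, was the steadiest member. It read 12.62, 12.92, 12.73 and 12.26 on Socs2-/- arrays 1 to 4, against 12.51, 12.63, 12.70, 12.43 and 12.62 on wt arrays 1 to 5 (ILMN_2767605). The 9 values covered 0.67 on the log2 scale, beside a median range of 2.80 over all probes tested, and the Lmo2 spread within genotypes lay at percentile 1.16 of all probes tested. Socs2-/- array 2 was the highest and Socs2-/- array 4 the lowest, with all wt arrays between them. Its difference was 0.06 (SE 0.34, limma adjusted p = 0.962), with an interval of -0.69 to 0.81, and -0.08 without Socs2-/- arrays 1 and 2.

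Gata2, the zinc finger factor of stem cells and early progenitors, on chromosome 6, lay at the other end, with a within-genotype spread at percentile 97.1 of all probes tested. It read 11.63, 7.91, 11.61 and 8.77 on Socs2-/- arrays 1 to 4, against 10.41, 11.55, 8.21, 11.44 and 11.20 on wt arrays 1 to 5 (ILMN_2612283). In each genotype some arrays were above 11 and at least 1 was under 9, including wt array 3, on which 35.4% of all probes were above 7.5. The means were 9.98 ± 1.93 in Socs2-/- cells and 10.56 ± 1.39 in wt cells (SD, n = 4 and 5), and the difference was -0.58 (SE 0.93, limma adjusted p = 0.844), with an interval of -2.62 to 1.46. Without Socs2-/- arrays 1 and 2 it was -0.37, without wt array 3 it was -1.17, and without Socs2-/- array 2 alone it was 0.11.

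**Figure D2:**
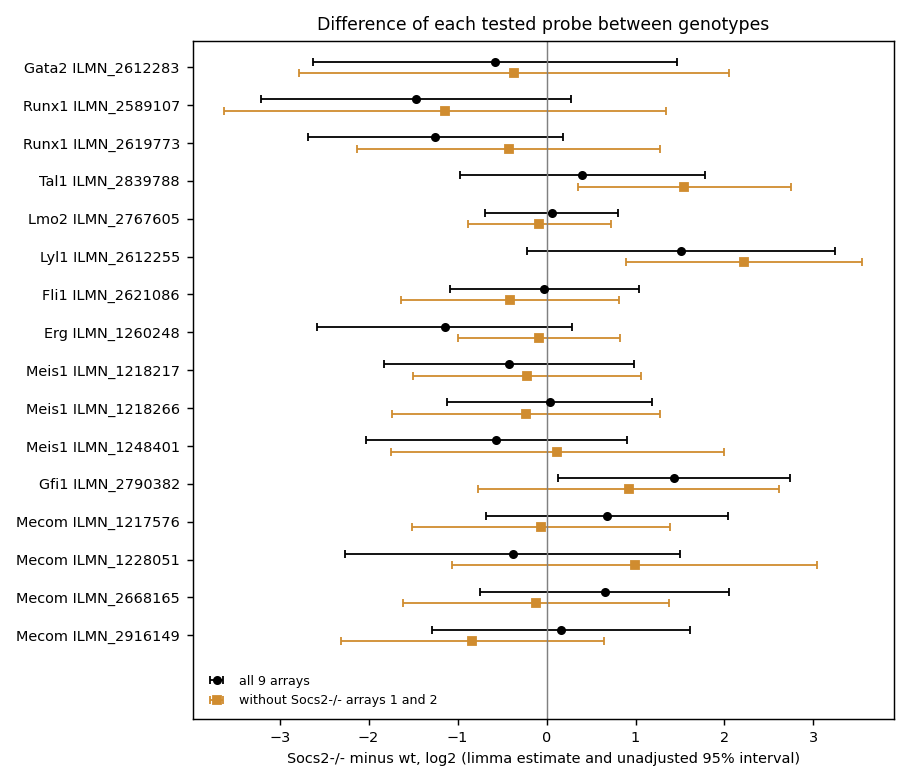
Differences between genotypes. Points are limma estimates of Socs2-/- minus wt on the log2 scale with unadjusted 95% intervals, in black for all 9 arrays and in orange without Socs2-/- arrays 1 and 2. With all arrays the interval of Gfi1 (0.13 to 2.73) is the single one that leaves out 0, and without the 2 arrays those of Lyl1 and Tal1 are.

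Meis1, the homeodomain cofactor of Hox proteins on chromosome 11, had 3 tested probes. The probe ILMN_1218266 read 10.67, 11.29, 10.47 and 10.43 on Socs2-/- arrays 1 to 4, against 9.19, 11.89, 10.76, 10.69 and 10.88 on wt arrays 1 to 5. Both extremes were wt arrays, and the difference was 0.03 (SE 0.52, limma adjusted p = 0.985). The probe ILMN_1218217 had means of 8.73 ± 1.38 in Socs2-/- cells and 9.15 ± 0.68 in wt cells (SD, n = 4 and 5), and its difference was -0.42 (SE 0.64, limma adjusted p = 0.833). The probe ILMN_1248401 was above 7.5 on 1 of 4 Socs2-/- arrays and 3 of 5 wt arrays, and its difference was -0.57 (SE 0.67, limma adjusted p = 0.778). The 3 probes gave -0.23, -0.22 and 0.12 without Socs2-/- arrays 1 and 2, so 2 of them changed sign.

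Mecom, on chromosome 3, had 4 tested probes, of which 3 are annotated to 1 transcript record and the fourth, ILMN_1228051, to another. The probe ILMN_1217576 read 10.02, 11.65, 8.89 and 9.81 on Socs2-/- arrays 1 to 4, against 8.30, 10.64, 9.24, 9.14 and 9.76 on wt arrays 1 to 5. The highest array was Socs2-/- 2, 1 of the arrays that stood apart, and the lowest was wt 1. Its difference was 0.68 (SE 0.62, limma adjusted p = 0.714), and -0.06 without Socs2-/- arrays 1 and 2. The other probes of that record gave 0.65 (ILMN_2668165, SE 0.64) and 0.16 (ILMN_2916149, SE 0.66), and -0.12 and -0.83 without the 2 arrays. The fourth probe read 6.88, 6.85, 8.16 and 11.05 on Socs2-/- arrays 1 to 4, against 8.82, 8.94, 9.98, 7.38 and 7.96 on wt arrays 1 to 5. It was lowest where the other 3 probes were highest, on Socs2-/- array 2, and its difference was -0.38 (SE 0.86, limma adjusted p = 0.893), and 0.99 without Socs2-/- arrays 1 and 2.

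The 3 Mecom probes of 1 record followed each other over the 9 arrays, while no pair of Meis1 or Runx1 probes passed the same test. Between ILMN_1217576 and ILMN_2668165 Pearson's r was 0.98 and Spearman's rho 0.93, with exact permutation p of 3.86e-05 and 0.00075 (adjusted 0.00039 and 0.0037 over the 10 pairs of probes of 1 gene). The r was 0.94 without the 2 arrays farthest from the median of the first probe, and on no array did these probes differ by more than 0.36. The other pairs of that record had r of 0.91 and 0.89 and rho of 0.95 and 0.90, with adjusted exact permutation p of 0.0020 and 0.0029 for r and 0.0035 and 0.0068 for rho, and r of 0.82 and 0.77 without the 2 farthest arrays. With the fourth Mecom probe r was -0.29, -0.41 and -0.36. The 3 Meis1 pairs had r of 0.18, -0.03 and 0.17, and the Runx1 pair had -0.12, and none of these 7 pairs passed the exact permutation test (adjusted p of 0.667 to 0.944). All of these correlations run over the same arrays and pool both genotypes, each of which has too few arrays for a value of its own. The r of the 3 Mecom pairs was 0.96, 0.84 and 0.80 without Socs2-/- arrays 1 and 2. On those 7 arrays the pair ILMN_1218217 and ILMN_1218266 of Meis1 had an r of 0.77, close to the lowest of the Mecom pairs, and the other Meis1 pairs had -0.31 and 0.36. The Runx1 pair had -0.71 there, and the fourth Mecom probe had 0.23, -0.02 and 0.04 with the other 3.

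**Figure D3:**
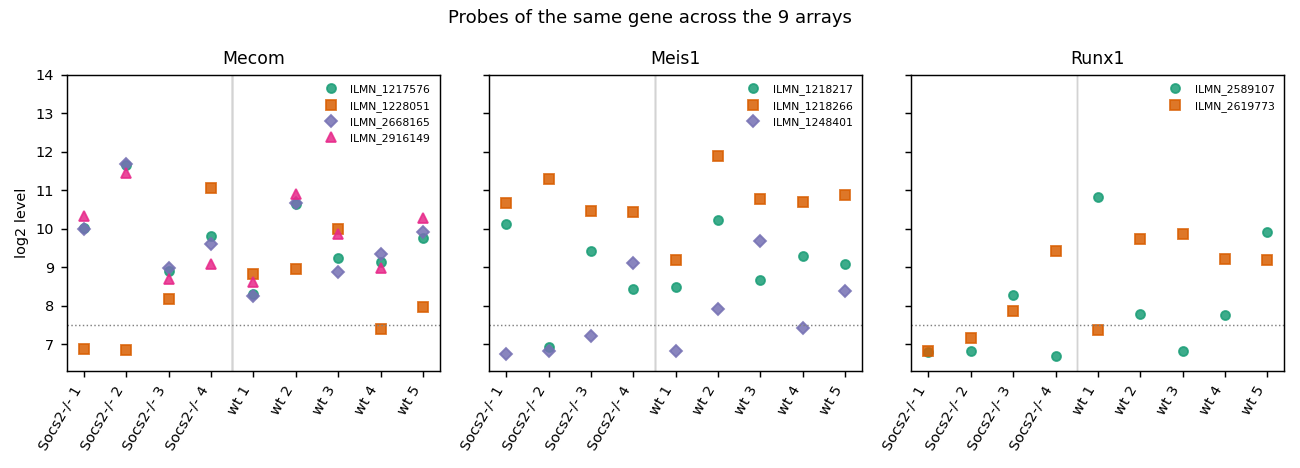
Probes of Mecom, Meis1 and Runx1. Log2 level is on the vertical axis, with Socs2-/- arrays 1 to 4 left of the grey line and wt arrays 1 to 5 right of it, 1 colour and shape per probe and a dotted line at 7.5. The 3 Mecom probes of 1 transcript record lie within 0.98 of each other on every array, while ILMN_1228051 lies up to 4.82 from them, and probes of Meis1 and Runx1 lie up to 4.46 and 3.43 apart.

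Low readings were most frequent on the arrays that stood apart, among the members and among all probes tested alike. Of the 16 tested member probes, 5, 8, 1 and 1 were at or below 7.5 on Socs2-/- arrays 1 to 4, against 4, 0, 2, 4 and 0 on wt arrays 1 to 5. Over all probes tested the shares were 36.6%, 40.7%, 16.8% and 21.0% on Socs2-/- arrays 1 to 4, against 19.4%, 16.3%, 19.8%, 18.6% and 16.9% on wt arrays 1 to 5. The members' share was thus higher than that of all probes on Socs2-/- array 2 and on wt arrays 1 and 4, and lower on the other 6 arrays. The median range of a member probe over the 9 arrays was 3.25 on the log2 scale, beside 2.80 over all probes tested, and the median size of its difference was 0.57, beside 0.52. With all values floored at 7.5, an alternative chosen after seeing the data that takes away differences below that level, Gfi1 had 1.34 (limma adjusted p = 0.499), Lyl1 1.51, Tal1 0.54 and Erg -0.87. The Runx1 probes had -1.06 and -1.02. The floor moved 3 differences by over 1.5 times, those of Mecom ILMN_1228051 to -0.09 and of Meis1 ILMN_1248401 and ILMN_1218217 to -0.29 and -0.28.

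**Figure D4:**
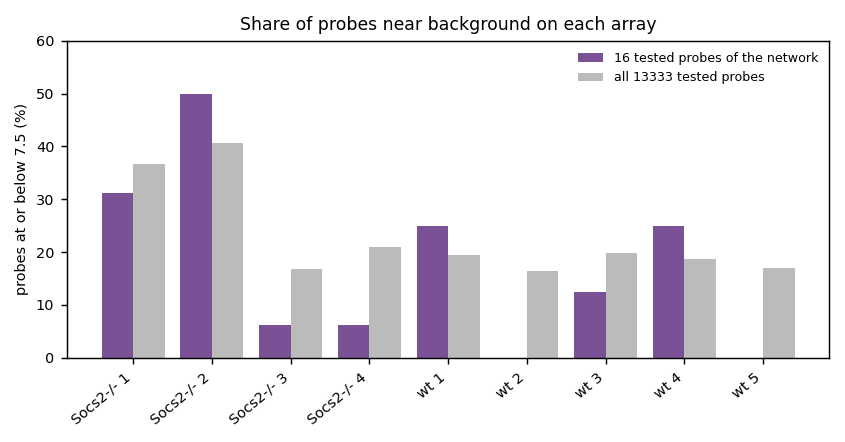
Probes at or below 7.5 on each array. Bars give the percent of the 16 tested member probes (purple) and of all 13333 tested probes (grey), with Socs2-/- arrays left of wt arrays. Socs2-/- arrays 1 and 2 have the tallest bars of both kinds, up to 50% and 40.7%, and wt arrays 2 and 5 have no member probe there.

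Partners, relatives and other blood regulators were read from fixed lists, each gene by the tested probe that was brightest on average. None of their genes passed an adjusted p under 0.05, beside 0% of all probes tested. Of 22 partners in the members' complexes 18 were tested, with 6 differences above 0 and 12 below (40.5% of all genes were above 0), a median of -0.30 beside -0.18 over all 8543 genes tested, and 2 genes at an unadjusted p under 0.05, beside 10.1% of all genes. Both had lower means in Socs2-/- cells. They were Cbfb, the partner of Runx1, and Sin3a, a corepressor scaffold. Cbfb had 10.93 ± 1.14 in Socs2-/- cells and 12.29 ± 0.29 in wt cells (SD, n = 4 and 5), a difference of -1.36 (SE 0.52, limma adjusted p = 0.436) that was -0.52 without Socs2-/- arrays 1 and 2. Of the 3 tested Cbfb probes, 1 had a difference above 0. Sin3a had a difference of -1.06 (SE 0.47, limma adjusted p = 0.480), and -0.91 without Socs2-/- arrays 1 and 2. Next by p came the histone deacetylase Hdac2 at -1.16 and Rcor1, part of the corepressor that Gfi1 recruits, at -1.45, both with an unadjusted p above 0.05, and these had -0.37 and -2.63 without the 2 arrays. Ldb1, through which Lmo2 joins the complex, had 11.07 ± 1.32 in Socs2-/- cells and 11.004 ± 1.15 in wt cells, a difference of 0.07, and 0.25 without the 2 arrays. The median of the list was -0.01 without Socs2-/- arrays 1 and 2.

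Of 13 paralogues of the members 6 were tested, 3 with differences above 0 and 3 below, beside 40.5% of all genes above 0. Their median was 0.14, and -0.26 without Socs2-/- arrays 1 and 2. The unadjusted p was below 0.05 for 2 of them, beside 10.1% of all genes, both lower in mean. They were Ets2, an ETS factor, at -1.57 (SE 0.63, limma adjusted p = 0.451) and Lmo4, a LIM-only protein like Lmo2, at -1.86 (SE 0.76, limma adjusted p = 0.457). Without Socs2-/- arrays 1 and 2 they had -1.04 and -0.71. Ets1 and Gfi1b, the erythroid relative of Gfi1, had 0.64 each, and 0.29 and 0.69 without the 2 arrays. Each of these genes had 2 tested probes, of which 1 had a difference above 0. Gata1, Gata3, Meis2, Meis3, Runx3 and Tal2 did not reach 7.5 on enough arrays to be tested.

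Of 18 other blood transcription factors 16 were tested, 7 with differences above 0 and 9 below, beside 40.5% of all genes above 0. Their median was -0.10, and -0.09 without Socs2-/- arrays 1 and 2. The unadjusted p was below 0.05 for 3 of them, beside 10.1% of all genes, of which 1 was higher and 2 were lower in mean. Etv6, an ETS repressor needed by adult stem cells, had 1.53 (SE 0.57, limma adjusted p = 0.417), and 0.53 without Socs2-/- arrays 1 and 2. Hlf, a marker of stem cells, had -1.39 and Hhex -1.35 (limma adjusted p = 0.480 for both), and -0.48 and -0.45 without them. Egr1, an immediate early gene tied to stem cell quiescence, had -1.91 (limma adjusted p = 0.518) and 0.05 without them. Myb and Ikzf1, which act in progenitors and lymphoid cells, had -0.67 and -0.14, and -0.08 and 0.71 without them. Of the 5 tested Ikzf1 probes, 1 had a difference above 0 with all arrays. Of the genes named here from the 3 lists with a difference larger than 1 in size, Rcor1 (-2.63) and Ets2 kept one without the 2 arrays. Each of these 2 genes was above 7.5 on 1 Socs2-/- array alone, and on 5 wt arrays. Their differences therefore rest in part on Socs2-/- values at or below 7.5, so the sizes are uncertain and no fold is given. For Rcor1 that 1 Socs2-/- array read 11.81, above the highest wt value of 9.94.

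**Figure D5:**
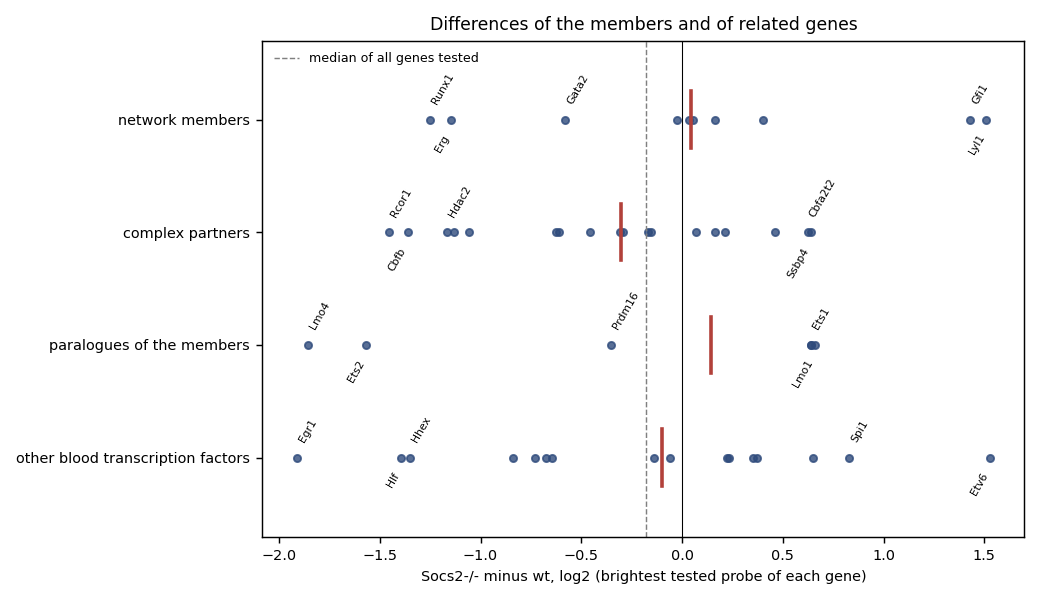
Differences of the members and of the listed genes. Each point is the Socs2-/- minus wt difference of 1 gene, by its brightest tested probe, on the log2 scale; red bars are list medians, the dashed line is the median over all genes tested (-0.18), and the outermost genes are named. The members extend on both sides of 0, with Lyl1 and Gfi1 at the upper end and Runx1 and Erg at the lower end.

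Markers of the sort and of other cell types are given beside these values. The level of a list on an array is the mean log2 value of all its named probes, tested or not. Kit, which the sort selects for, gave 1.94 (SE 0.62, limma adjusted p = 0.375), -0.08 and -0.24 with its 3 probes, and 2.24, 0.84 and 0.70 without Socs2-/- arrays 1 and 2. Ly6a, which encodes Sca-1, was not analysed here. Of 8 LSK markers 6 genes were tested, and the list level over 12 probes was 7.81 to 9.04 on Socs2-/- arrays and 8.23 to 8.96 on wt arrays. By their brightest tested probes, Cd34 had 0.82, Procr 0.93, Slamf1 -1.40, Cd48 -0.25 and Flt3 -0.45. Without Socs2-/- arrays 1 and 2 they had 0.37, 0.54, -1.09, -0.16 and -0.19. No LSK marker had an unadjusted limma p under 0.05 by its brightest probe, beside 10.1% of all genes. Slamf1 was above 7.5 on 1 of 4 Socs2-/- arrays and 3 of 5 wt arrays.

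Of 7 erythroid markers 2 were tested, and the list level over 6 probes was 8.96 to 9.68 on Socs2-/- arrays and 8.22 to 9.26 on wt arrays. Hba-a1, an alpha globin, had 3.37 (SE 0.81, limma adjusted p = 0.221), and 2.30 without Socs2-/- arrays 1 and 2. It was above 7.5 on 4 of 4 Socs2-/- arrays and 1 of 5 wt arrays. The size of its difference rests in part on wt values at or below 7.5 and is uncertain. Car2, a carbonic anhydrase, had 0.21, and Klf1, Epor and Car1 were too dim to test.

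Of 8 granulocyte and monocyte markers 6 were tested, and the list level over 16 probes was 8.73 to 9.39 on Socs2-/- arrays and 8.86 to 9.85 on wt arrays. Csf1r, the receptor of monocytes, had 1.46 (limma adjusted p = 0.324) and did not overlap between genotypes, as was the case for 3.53% of all probes tested. Granule and lysozyme genes went both ways, with Ctsg and Mpo at -1.58 each, Prtn3 at 0.34, Lyz1 at -0.21 and Lyz2 at -0.10. Of the 3 tested Lyz1 probes, 2 had a difference above 0. Without Socs2-/- arrays 1 and 2 Csf1r had 1.66, Ctsg -1.36, Mpo -2.19, Prtn3 0.22, Lyz1 0.16 and Lyz2 0.06.

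Of 6 mast cell and basophil markers 3 were tested, and the list level over 10 probes was 7.09 to 8.19 on Socs2-/- arrays and 7.2996 to 7.99 on wt arrays. Mcpt8 had -2.08 and Hdc 1.42, and they had -1.08 and 0.42 without the 2 arrays. Cpa3 had -0.39, and -0.91 without the 2 arrays, and of its 2 tested probes 1 had a difference above 0. Mcpt8 was above 7.5 on 1 of 4 Socs2-/- arrays and 5 of 5 wt arrays, and Hdc on 4 of 4 and 2 of 5. Of 6 megakaryocyte markers 3 were tested, with a list level over 8 probes of 8.01 to 8.56 on Socs2-/- arrays and 8.04 to 8.81 on wt arrays. Gp9, a platelet glycoprotein, had -0.32 and Itga2b 0.74, and they had -0.43 and -0.08 without the 2 arrays. Pf4 had -0.29, and -0.68 without the 2 arrays. Of 6 endothelial markers 4 were tested, with a list level over 12 probes of 8.02 to 8.46 on Socs2-/- arrays and 7.74 to 8.36 on wt arrays. Esam had -0.07, Egfl7 0.75 and Emcn -1.28, against 0.37, 0.83 and -0.81 without the 2 arrays, and the defining Cdh5 and Kdr were too dim to test. Pecam1 had 0.37, and 0.45 without the 2 arrays. Egfl7 and Pecam1 had 2 tested probes each, of which 1 had a difference above 0. Of 9 lineage markers that the gate removes 4 were tested, with a list level over 9 probes of 7.45 to 8.18 on Socs2-/- arrays and 7.25 to 7.99 on wt arrays. Cd8a had 0.03, Ptprcap 0.38, Cd4 -0.36 and Cd3e 0.27, and they had -0.34, -0.39, -0.23 and 1.87 without the 2 arrays. The part of these other cells in the members' values was not tested.

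For the 3 members whose probes had the highest mean over the arrays, the tested genes whose levels were most like theirs over the 9 arrays were looked up among 8542 genes. Lmo2 was most like Reps1 and Trim28, with Pearson's r of 0.94 for both and rho of 0.88 and 0.83. Meis1 (ILMN_1218266) was most like Entpd4 and Nfu1, with r of 0.90 for both and rho of 0.90 and 0.68. Gata2 was most like Ern1 and Gmds, with r of 0.96 and 0.95 and rho of 0.85 and 0.68. These are the highest of many values from the same 9 arrays, so they are descriptions with no test.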

How the data were processed

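Total RNA (250 pg) was amplified and hybridised to Illumina mouse bead arrays, per the labels' protocols. What the authors deposited, and what was taken here as log2 values, had been processed by them. The submitters' processing notes name lumi, without a version. The transformation and the normalization method were not given in the sources used here; a variance-stabilising step would make the folds of dim genes too small. The other table, not normalized, was left out, because its 18 columns carry chip positions that no label gives.

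Groups and replicate numbers came from the sample titles. Probes with 1 symbol (34885) entered when above 7.5 on at least 4 of 9 arrays. Genotypes were compared at each probe with limma 3.58.1 in R 4.3.3 (lmFit, eBayes, two-sided, no covariate), with Benjamini-Hochberg adjustment over all 13333 probes and a threshold of 0.05, and with an exact permutation test at single member probes. The procedure was tested on simulated data. Alternatives changed the filter, minimum, scaling, weights, variance model, probe summary and arrays used. The number of arrays limits the precision. Named were all member probes, Socs2, Kit and Ly6a, from each pathway list the 4 genes with the smallest p and the 2 brightest, and from the lists of other cell types the brightest gene and the 2 of smallest p. Mpo, Prtn3, Lyz2, Cd3e, Cpa3, Pf4, Pecam1, Cd34, Procr, Slamf1, Cd48 and Flt3 were added after their values were seen. The tested genes of their lists are thus given in full. Lists were drawn from general knowledge, and the members and lists were chosen with earlier results of these data known; Etv6, Hlf and other list genes were ranked, not called.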

Additional observations from a re-analysis of the deposited data

Results flagged for a closer look

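Of the 32 sets of arrays examined, 16 member probes in each of the 2 genotypes, 2 held an array far from the others, where chance gives about 1 in 20. On Runx1 probe ILMN_2589107, Socs2-/- array 3 read 8.27, while the nearest of the other Socs2-/- arrays read 6.83. On Runx1 probe ILMN_2619773, wt array 1 read 7.38, while the nearest of the other wt arrays read 9.18. Wt array 1 was at the same time the highest of the 9 arrays on the first probe, at 10.81.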

How the results depend on the processing

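No member probe passed an adjusted p under 0.05 in any of the 22 settings run, and the smallest adjusted p was 0.274, for Runx1 probe ILMN_2619773 without Socs2-/- array 4. The count at an unadjusted p under 0.05, 1 with all arrays, was 0 with a variance trend and robust eBayes, where Gfi1 had a limma p of 0.0575. With probes above 7.5 on all 9 arrays it was also 0. That filter kept 7 member probes and left out Gfi1, so Gfi1 was not tested there. The count was 2 with the mean of a gene's tested probes (Runx1 and Gfi1) and 2 without Socs2-/- arrays 1 and 2. It ranged over 0 to 3 when single arrays were left out: 0 without Socs2-/- array 1 or wt array 4, 2 without wt array 3 (Gfi1 and Runx1), and 3 without Socs2-/- array 4 (Gfi1, Runx1 and Erg). Gfi1 was not the probe counted in 3 settings that kept a count of 1: that probe was Lyl1 with array weights (where Gfi1 had a difference of 1.07) and without Socs2-/- array 2, and Runx1 ILMN_2619773 without wt array 1. Changes of filter, minimum, probe choice or variance model (6 settings) leave a difference as it is by construction. In the other 15 settings 240 differences were recomputed, of which 211 kept their sign and 29 turned. None of the 29 was a value of Erg, Gfi1, Lyl1 or either Runx1 probe. Without Socs2-/- arrays 1 and 2 the turned values were -0.081 for Lmo2, -0.23 (ILMN_1218266) and 0.12 (ILMN_1248401) for Meis1, and -0.064 (ILMN_1217576), 0.99 (ILMN_1228051), -0.12 (ILMN_2668165) and -0.83 (ILMN_2916149) for Mecom. With array weights they were -0.29 for Meis1 ILMN_1218266, and 0.13 (ILMN_1228051) and -0.47 (ILMN_2916149) for Mecom. Fli1 turned to 0.090 with centred arrays, 0.029 with quantile normalization and 0.0019 with the replicate block; the median over all probes tested was -0.07 and -0.12 with these scalings, beside -0.19 as deposited. With single arrays left out, the ranges that crossed 0 were -0.33 to 0.28 for Fli1, -1.17 to 0.11 for Gata2, -0.041 to 0.18 for Lmo2, -0.0061 to 0.79 for Tal1, -1.32 to 0.081 (ILMN_1228051) and -0.35 to 0.56 (ILMN_2916149) for Mecom, and -0.88 to 0.17 (ILMN_1218217) and -0.34 to 0.34 (ILMN_1218266) for Meis1. The sign turned without Socs2-/- array 2 for Gata2, Lmo2, Meis1 ILMN_1218217, Meis1 ILMN_1218266 (-0.16), Mecom ILMN_1228051 and Mecom ILMN_2916149; without Socs2-/- array 1 for Mecom ILMN_1228051 (0.072); without Socs2-/- array 3 for Tal1; without wt array 1 for Meis1 ILMN_1218266 and Mecom ILMN_2916149 (-0.11); without wt array 4 for Mecom ILMN_2916149 (-0.024); and without any of Socs2-/- arrays 1 and 4 and wt arrays 1, 4 and 5 for Fli1. The cause of these turns was not tested. The replicate block, run on arrays 1 to 4 of each genotype, left the count at 1. After subtraction of each genotype's mean at every tested probe, same-numbered arrays had correlations of -0.06 to 0.03. Of the 4 Socs2-/- arrays, 2 were most like the wt array of the same number. The labels do not say whether the numbers pair arrays, and so few arrays cannot decide it. A floor at 7.5, chosen after seeing the data, kept both counts, and moved 3 differences by over 1.5 times: Mecom ILMN_1228051 to -0.086, Meis1 ILMN_1248401 to -0.29 and Meis1 ILMN_1218217 to -0.28. Starting from the non-normalized table was not run, because its columns match no label.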
